A study of Mus musculus with 7 samples.

Results

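The immediate early genes Fos, Fosb, Jun, Junb, Jund, Egr1, Egr2, Atf3, Nr4a1 and Ier2 were followed in pancreatic islets of pregnant mice. Each gene was taken from the probe set that the platform annotation assigns to its symbol alone, with the highest mean over the arrays where a gene has several. All 10 were measured, each by 1 probe set, of 19938 genes in all. The islets came from 4 female mice heterozygous for a null allele of the prolactin receptor (PrlR+/-) and 3 female wild type mice (PrlR+/+), all on the C57BL/6 background. Timed matings were set at an age of 12 to 16 weeks, islets were taken on day 15 of pregnancy, and each mouse had its own Affymetrix expression array. The labels name no tissue-specific driver of the null allele and no litter for any mouse. Values are log2 expression, so a difference of 1 is a 2-fold difference. In bulk islets, fewer cells of a type and less RNA per cell cannot be told apart.

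Immediate early genes are transcribed soon after a stimulus reaches a cell, from factors already present and without new protein synthesis. Kinases of the ERK and p38 pathways and calcium signals act on CREB at cyclic AMP response elements and on serum response factor at CArG boxes, and the induced mRNAs are short-lived. In beta cells glucose and membrane depolarization are known inducers, and in many tissues enzymatic dissociation, heat and other stress induce the same genes. FOS and JUN proteins pair as the transcription factor AP-1, EGR and NR4A proteins bind DNA on their own or with partners, and ATF3 is a stress-induced member of the ATF/CREB family.

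The promoter windows of Fos, Fosb, Jun and Atf3 are shown, since these are 4 of the 5 members that were at least 1 log2 unit higher in 1 wild type mouse than in every other mouse. They were searched for motifs through which such genes are known to be induced. RefSeq (GRCm38.p6) gave a window from 250 bases before to 50 bases after the start for 8 of the 10 members, and none for Egr1 and Ier2. TGACG, the core of a cyclic AMP response element, was searched on both strands, as were the full element TGACGTCA, the AP-1 site TGACTCA, the TATA motif TATAAA and the CArG box. Capitals mark every match in the windows of Fos (chr12:85473640-85473939, plus strand), Fosb (chr7:19309996-19310295, minus strand), Jun (chr4:95052173-95052472, minus strand) and Atf3 (chr1:191183284-191183583, minus strand), each written 5′ to 3′ in the direction of the gene.
Fos: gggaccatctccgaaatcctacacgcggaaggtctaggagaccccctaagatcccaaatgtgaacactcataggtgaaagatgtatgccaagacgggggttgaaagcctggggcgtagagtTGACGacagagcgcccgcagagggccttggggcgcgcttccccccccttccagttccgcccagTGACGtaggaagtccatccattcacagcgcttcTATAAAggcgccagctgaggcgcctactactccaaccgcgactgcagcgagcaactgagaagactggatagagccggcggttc
Fosb: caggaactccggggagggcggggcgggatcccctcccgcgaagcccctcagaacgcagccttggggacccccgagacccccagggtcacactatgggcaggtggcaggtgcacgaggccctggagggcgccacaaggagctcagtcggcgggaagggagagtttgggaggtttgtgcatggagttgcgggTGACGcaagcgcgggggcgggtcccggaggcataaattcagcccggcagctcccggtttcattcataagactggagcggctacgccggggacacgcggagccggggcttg
Jun: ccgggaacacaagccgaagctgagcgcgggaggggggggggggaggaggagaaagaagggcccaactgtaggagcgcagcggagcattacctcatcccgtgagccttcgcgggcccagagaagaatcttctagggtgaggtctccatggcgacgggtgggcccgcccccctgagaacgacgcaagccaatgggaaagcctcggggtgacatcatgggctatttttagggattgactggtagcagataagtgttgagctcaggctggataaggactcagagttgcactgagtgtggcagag
Atf3: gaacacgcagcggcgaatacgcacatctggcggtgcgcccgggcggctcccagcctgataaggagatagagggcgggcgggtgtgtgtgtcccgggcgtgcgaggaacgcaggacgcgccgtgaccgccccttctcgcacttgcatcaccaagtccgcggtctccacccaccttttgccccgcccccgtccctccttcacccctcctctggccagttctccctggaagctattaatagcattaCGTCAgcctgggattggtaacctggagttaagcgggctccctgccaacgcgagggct
Fos held TGACG with its first base at -129 and at -66 from the start and TATAAA at -33. Fosb held TGACG at -60, and Atf3 held it on the other strand at -7. No letters of the searched motifs were matched in the Jun window. The 8 genes had 12 windows, since Egr2 has 5 starts whose windows partly overlap and the other 7 genes have 1 each. TGACG was present in 8 of the 12 windows, from 6 genes, and in 20.8% of 32851 windows of this length. TATAAA was present in 2 of the 12, from Fos and Junb, and in 13.6% of windows. The CArG box was present in 4 of the 12, all from 1 gene, Egr2, and in 1.63% of windows. Overlapping Egr2 windows share the same CArG box and TGACG matches, so the 12 windows are not separate observations. TGACGTCA, found in 1.79% of windows, and TGACTCA, found in 5.20%, were matched in 0 of the 12. Sites with other letters, or outside these windows, were not counted, so a window without a match may still lie by or hold such a site. A match describes these letters and was not tested as a binding site.

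All 10 immediate early genes had a lower mean in PrlR+/- than in PrlR+/+ islets, and 1 wild type mouse, PrlR+/+ 3, carried most of that difference. The median log2 difference of the 10 genes, PrlR+/- minus PrlR+/+, was -0.493, beside 0.0142 over all genes. PrlR+/+ 3 had the highest value of the 7 mice for 10 of the 10 genes, whereas it had the highest value for 8.17% of all genes. No member passed the test across all genes (limma, Benjamini-Hochberg adjusted p = 0.99 for each), where 0% of all genes were called. Likewise 0 of the 10 had an unadjusted p under 0.05, against 2.20% of all genes, and for 0 of the 10 did every PrlR+/- mouse lie below every PrlR+/+ mouse, against 1.21% of all genes. Because the members were chosen with earlier results known, their shared direction is a description.

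The per-mouse mean of the 10 genes was 7.776, 7.821, 7.877 and 7.966 in PrlR+/- mice 1 to 4, against 7.699, 8.104 and 9.268 in PrlR+/+ mice 1 to 3. The heterozygous mice were close together, at 7.86 ± 0.0819 (SD, n = 4), and the wild type mice spread widely, at 8.36 ± 0.815 (SD, n = 3). PrlR+/+ 1 had the lowest mean of all 7 mice and PrlR+/+ 3 the highest, so the heterozygous group lay inside the range of the wild type group. Within the wild type group, PrlR+/+ 1 was lowest and PrlR+/+ 3 highest for 10 of the 10 genes. Among the heterozygous mice no such order was seen: the highest value was in PrlR+/- 4 for 4 genes, in PrlR+/- 3 for 3, in PrlR+/- 1 for 1 and in PrlR+/- 2 for 1, and for Ier2 PrlR+/- 1, 3 and 4 were equal.

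**Figure D1:**
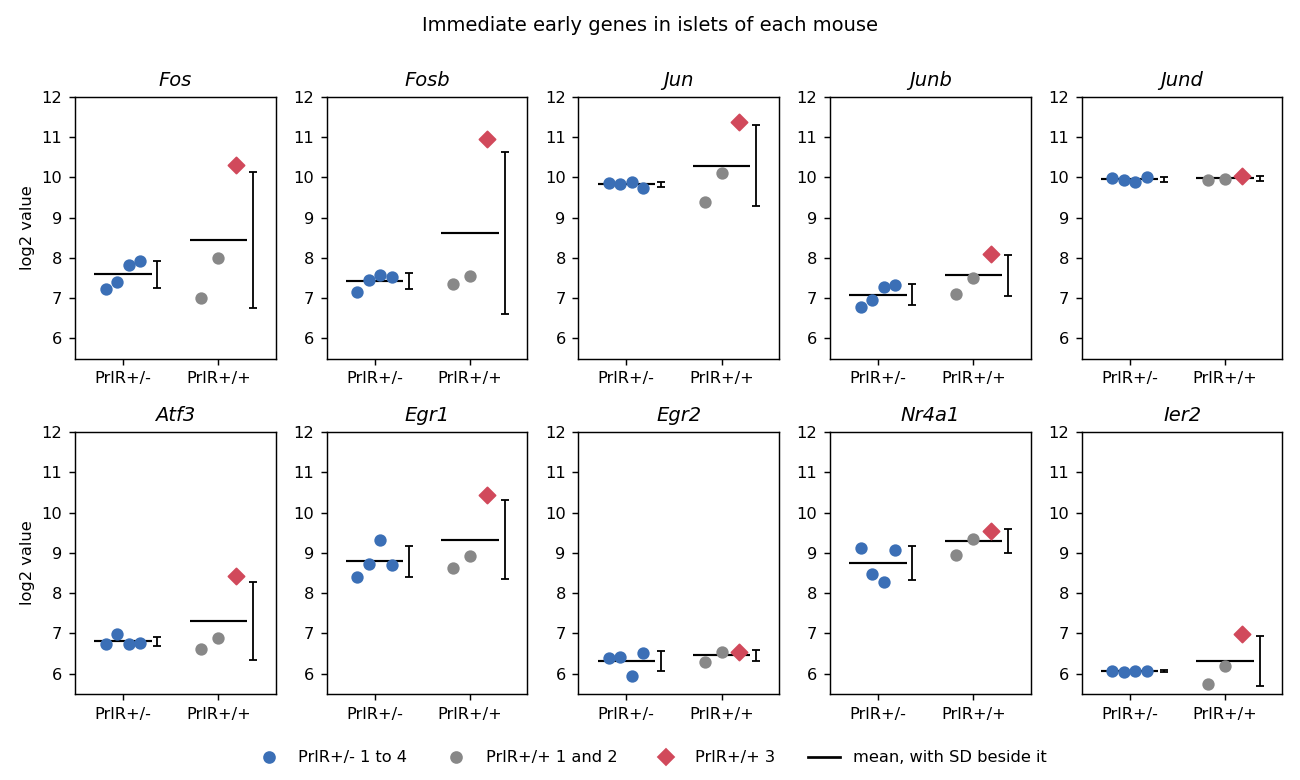
Log2 values of the 10 immediate early genes in islets of each mouse, PrlR+/- (blue, n = 4) left of PrlR+/+ (grey circles, with PrlR+/+ 3 as a red diamond, n = 3). Horizontal lines are group means and the bars beside them SD. PrlR+/+ 3 is the highest point in every panel, by 3.37 for Fosb and by 0.02 for Jund.

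The 2 FOS family genes showed the widest gap. Fos (probe set 10397346), which encodes the inducible partner of JUN proteins in AP-1, had log2 values of 7.23, 7.40, 7.82 and 7.93 in PrlR+/- mice, against 7.01, 8.0 and 10.3 in PrlR+/+ mice. All 4 heterozygous values lay between those of PrlR+/+ 1 and PrlR+/+ 2, and PrlR+/+ 3 was 4.93-fold above the next mouse. The difference of Fos was -0.84 ± 0.69 (SE, limma, adjusted p = 0.99).

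Fosb (probe set 10560481), a second FOS protein that also pairs with JUN proteins, had 7.14, 7.45, 7.57 and 7.52 in PrlR+/- mice, against 7.34, 7.56 and 10.94 in PrlR+/+ mice. Apart from PrlR+/+ 3 the mice stayed within 0.43 of each other, and PrlR+/+ 3 was 10.3-fold above the next. This gap of 3.37 was the largest of PrlR+/+ 3 among all 19938 genes. The difference was -1.19 ± 0.81 (SE, adjusted p = 0.99).

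Of the JUN family, Jun and Junb were highest in PrlR+/+ 3 by 1.28 and 0.58, and Jund by 0.02. Jun (probe set 10514466), the founding AP-1 subunit, had 9.86, 9.83, 9.87 and 9.73 in PrlR+/- mice, against 9.38, 10.10 and 11.38 in PrlR+/+ mice. The heterozygous mice agreed within 0.14, while PrlR+/+ 1 was the lowest and PrlR+/+ 3 the highest of all mice. Its difference was -0.46 ± 0.41 (SE, adjusted p = 0.99).

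Junb (probe set 10580282), which can restrain as well as carry AP-1 activity, had 6.79, 6.95, 7.27 and 7.32 in PrlR+/- mice, against 7.09, 7.51 and 8.09 in PrlR+/+ mice. The mouse next to PrlR+/+ 3 was PrlR+/+ 2, and PrlR+/+ 1 lay among the heterozygous mice. The difference was -0.48 ± 0.24 (SE, unadjusted p = 0.084, limma, adjusted p = 0.99). Jund (probe set 10572456), the JUN protein made at a steadier level, had 9.97, 9.94, 9.87 and 10.01 in PrlR+/- mice, against 9.92, 9.96 and 10.03 in PrlR+/+ mice. The groups overlapped and no mouse stood apart, with a difference of -0.02 ± 0.06 and a 95% interval from -0.16 to 0.12.

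Atf3 (probe set 10361091), the stress-induced ATF/CREB family repressor, had 6.75, 6.98, 6.74 and 6.76 in PrlR+/- mice, against 6.62, 6.90 and 8.42 in PrlR+/+ mice. The pattern was that of Fosb: 6 mice lay within 0.36, and PrlR+/+ 3 was 2.71-fold above the highest of them. The difference was -0.51 ± 0.39 (SE, adjusted p = 0.99).

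Egr1 (probe set 10454782), a zinc finger factor induced by ERK signalling, had 8.41, 8.72, 9.32 and 8.71 in PrlR+/- mice, against 8.62, 8.93 and 10.44 in PrlR+/+ mice. PrlR+/- 3 was second to PrlR+/+ 3, which was 2.17-fold above it, and the difference was -0.54 ± 0.43 (SE, adjusted p = 0.99). Egr2 (probe set 10363735), its relative best known from Schwann cells and the hindbrain, had 6.40, 6.42, 5.95 and 6.52 in PrlR+/- mice, against 6.30, 6.53 and 6.55 in PrlR+/+ mice. The largest departure for Egr2 was the low value in PrlR+/- 3, and PrlR+/+ 3 exceeded PrlR+/+ 2 by 0.02.

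Nr4a1 (probe set 10427035), which encodes the orphan nuclear receptor NUR77, had 9.13, 8.48, 8.28 and 9.08 in PrlR+/- mice, against 8.96, 9.35 and 9.55 in PrlR+/+ mice. Here 2 heterozygous mice, PrlR+/- 2 and PrlR+/- 3, lay below all others, and PrlR+/+ 3 was only 0.20 above PrlR+/+ 2. The difference was -0.54 ± 0.25 (SE, unadjusted p = 0.0602, limma, adjusted p = 0.99), the smallest unadjusted p of the 10. Ier2 (probe set 10580183), which encodes a small nuclear protein induced by serum, had 6.08, 6.04, 6.08 and 6.08 in PrlR+/- mice, against 5.75, 6.20 and 6.98 in PrlR+/+ mice. The heterozygous values were nearly equal and PrlR+/+ 3 was 1.72-fold above the next mouse.

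Leaving out PrlR+/+ 3 brought the genotype difference near 0 for most members. The mean difference of the 10 genes was -0.0415 without this mouse, in place of -0.497, and their median was 0.0112. Of the 10 genes, 6 then had a higher and 4 a lower mean in PrlR+/- islets, and the size of the difference was under 0.5 times its value with all mice for 8. Fos was at 0.09 ± 0.32, Fosb at -0.03 ± 0.14, Jun at 0.08 ± 0.19, Atf3 at 0.05 ± 0.11 and Egr1 at 0.02 ± 0.25 (SE). The 2 genes that kept over 0.5 times their difference were Nr4a1, at -0.41 ± 0.28, and Egr2, at -0.09 ± 0.17. Junb was at -0.22 ± 0.20. Without PrlR+/+ 3, 0 of the 10 had an unadjusted p under 0.05, against 1.24% of all genes, and the smallest was 0.195, for Nr4a1 (limma, adjusted p = 1.0).

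The other wild type mice moved the mean difference the other way. It was -0.826 without PrlR+/+ 1, the mouse with the lowest wild type values, and -0.624 without PrlR+/+ 2. Without PrlR+/+ 1, 5 members (Fos, Jun, Junb, Nr4a1 and Ier2) had an unadjusted p under 0.05, against 1.77% of all genes, and 0 passed after adjustment (limma). Leaving out any of the 4 heterozygous mice kept it between -0.532 and -0.469.

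**Figure D2:**
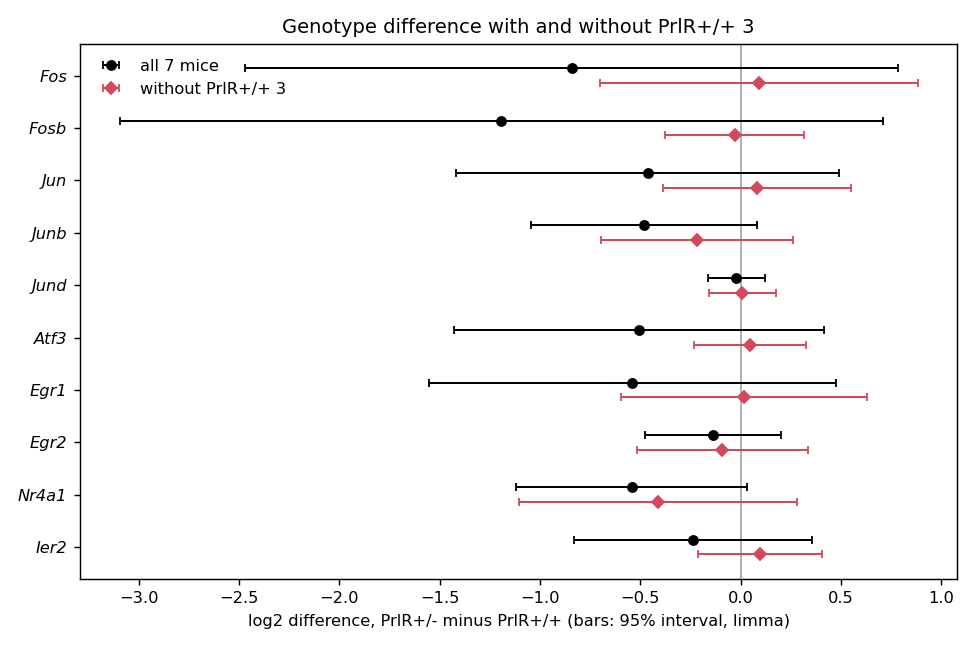
Log2 difference of each member, PrlR+/- minus PrlR+/+, with all 7 mice (black circles) and without PrlR+/+ 3 (red diamonds). Bars are 95% intervals from limma. With all mice 10 of 10 points lie below 0, and without PrlR+/+ 3 only 4 do, with every interval crossing 0.

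PrlR+/+ 3 stood apart in few genes other than these. Across the 19938 genes its array correlated with each other array at r from 0.9889 to 0.9974 over genes, which are not independent replicates, and the median gene was 7.35, beside 7.34 to 7.37 on the other arrays. limma's array weights, which are lower for arrays that depart from their group over all genes, were highest for this array, at 2.74 beside 0.294 to 2.23. By a rule chosen after the values were seen, PrlR+/+ 3 was at least 1 log2 unit above every other mouse for 11 genes, and 5 of them were the members Fosb, Fos, Atf3, Jun and Egr1. These 11 were the most of any mouse: 0, 10, 4 and 4 genes met the rule in PrlR+/- mice 1 to 4, and 1 and 7 in PrlR+/+ 1 and 2. For no other mouse did a member meet that rule. With a gap of 0.5, 24 genes met it in PrlR+/+ 3, of which 7 were members, Ier2 and Junb having joined. The other mice had from 6 such genes, in PrlR+/+ 1, to 91, in PrlR+/- 4, and 0 members.

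The remaining 6 of the 11 genes were Hspa1a, Mir7b, Snord14e, Mir7-2, Rgs1 and Mir200b. Hspa1a, the stress-induced heat shock protein of the HSP70 family, was at 8.62, 8.86, 8.61 and 8.61 in PrlR+/- mice, against 8.22, 8.30 and 11.36 in PrlR+/+ mice. Its near-identical copy Hspa1b may bind the same probes, so the value is uncertain as to the gene. Rgs1, a regulator of G protein signalling, was at 6.69 in PrlR+/+ 3 and at 4.97 to 5.28 in the other mice. How the islets of each mouse were handled is not given in the sources used here, and its part in the pattern was not tested.

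**Figure D3:**
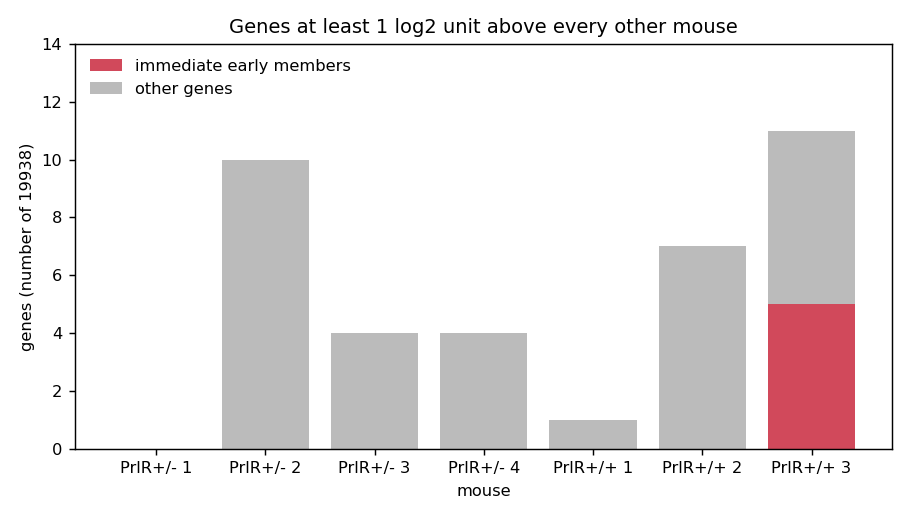
Number of genes, of 19938, whose log2 value in the named mouse was at least 1 above that in every other mouse, with PrlR+/- mice left of PrlR+/+ mice. Immediate early members are red and other genes grey. The 5 members all fall in PrlR+/+ 3, where they are 5 of 11 genes.

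Other genes of the early response shared the pattern only in part. Of 32 further immediate early genes, 23 had a lower and 9 a higher mean in PrlR+/- islets, with a median difference of -0.0717, and 0 were called. Of these, 1, Gadd45a, a growth arrest gene induced by DNA damage, had an unadjusted p under 0.05 (limma), against 2.2% of all genes. It was at 7.91, 7.62, 7.76 and 7.93 in PrlR+/- mice, against 8.59, 7.95 and 8.21 in PrlR+/+ mice, and its highest mouse was PrlR+/+ 1. Klf6, a zinc finger factor, was at 8.13 to 8.21 in PrlR+/- mice, against 8.14, 8.55 and 8.60 in PrlR+/+ mice (difference -0.25 ± 0.11, SE). PrlR+/+ 3 was the highest mouse for 8 of the 32 and PrlR+/+ 2 for another 8, and the median without PrlR+/+ 3 was -0.0375.

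The neuronal activity genes Npas4 and Arc, picked for their values, were high in PrlR+/+ 3 as well. Npas4, a calcium-induced factor, had the largest difference of the 32, with 8.08, 7.29, 6.36 and 8.33 in PrlR+/- mice, against 7.59, 9.37 and 9.98 in PrlR+/+ mice. It was high in PrlR+/+ 2 too, and its difference of -1.46 ± 0.66 (SE, adjusted p = 0.99) was -0.965 without PrlR+/+ 3. Arc was at 6.85 to 7.10 in PrlR+/- mice, against 6.94, 6.94 and 7.85 in PrlR+/+ mice. The close relatives Egr3, Nr4a2 and Nr4a3, also picked after their values were seen, were not highest in PrlR+/+ 3. Their values in that mouse were 7.60, 9.41 and 5.54, beside 7.67, 9.51 and 5.84 in the highest mouse for each.

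The AP-1 partners and related leucine zipper factors had a median difference of 0.00542, with 5 lower and 7 higher means and 0 of 12 called. PrlR+/+ 3 was the highest mouse for 0 of them, and PrlR+/- 4 for 8, beside 29.3% of all genes. The 2 of smallest unadjusted p were Batf, known from lymphoid cells, at 0.15 ± 0.15 and the small MAF gene Mafk at -0.04 ± 0.05 (SE).

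Feedback inhibitors, which are induced with the early genes and end the response, had a median of -0.075 over 23 genes, with 15 lower and 8 higher means and 0 called. Trib1, a pseudokinase gene, was at -0.32 ± 0.16 and Nab1, a corepressor of EGR factors, at 0.11 ± 0.06 (SE). Here PrlR+/+ 2 was the highest mouse for 9 genes, or 39.1%, beside 13.6% of all genes. PrlR+/+ 3 was highest for 4, or 17.4%, beside 8.17% of all genes. Rgs2, named after its values were seen, was at 9.09, 8.36, 9.92 and 11.25 in PrlR+/- mice, against 8.78, 11.51 and 9.93 in PrlR+/+ mice. Its high mice were PrlR+/+ 2 and PrlR+/- 4, and PrlR+/+ 3 was 1.58 below the highest.

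For 24 kinases and factors upstream of these genes the median difference was 0.0325, with 10 lower and 14 higher means and 0 called, and their per-mouse mean was 9.584 to 9.743 in PrlR+/- mice, against 9.602 to 9.648 in PrlR+/+ mice. Mrtfa, a coactivator of serum response factor, was at 8.48, 8.48, 9.11 and 9.09 in PrlR+/- mice, against 8.27, 8.37 and 8.44 in PrlR+/+ mice. It was the 1 gene of the 24 with every PrlR+/- mouse above every PrlR+/+ mouse, beside 205 of all 19938 genes. The Mrtfa difference was 0.43 ± 0.18 (SE, unadjusted p = 0.051, limma, adjusted p = 0.99), and that of the ERK-activated kinase gene Rps6ka3 was -0.33 ± 0.15 (SE). Among 9 heat shock genes the mean was lower in PrlR+/- islets for 5 and higher for 4, and the median difference was -0.0308. The mitochondrial chaperone gene Hspd1 was at -0.20 ± 0.07 (unadjusted p = 0.0314, limma, adjusted p = 0.99) and its partner Hspe1 at 0.15 ± 0.10 (SE). The heat shock mean of PrlR+/+ 3 was 10.6, beside 10.03 to 10.23 in the other mice. Without Hspa1a, left out after its values were seen, it was 10.51, beside 10.26 to 10.43. With Hspa1a counted, PrlR+/+ 3 was the only highest mouse for 2 of the 9 genes, Hspa1a and Dnajb1, beside 8.17% of all genes.

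**Figure D4:**
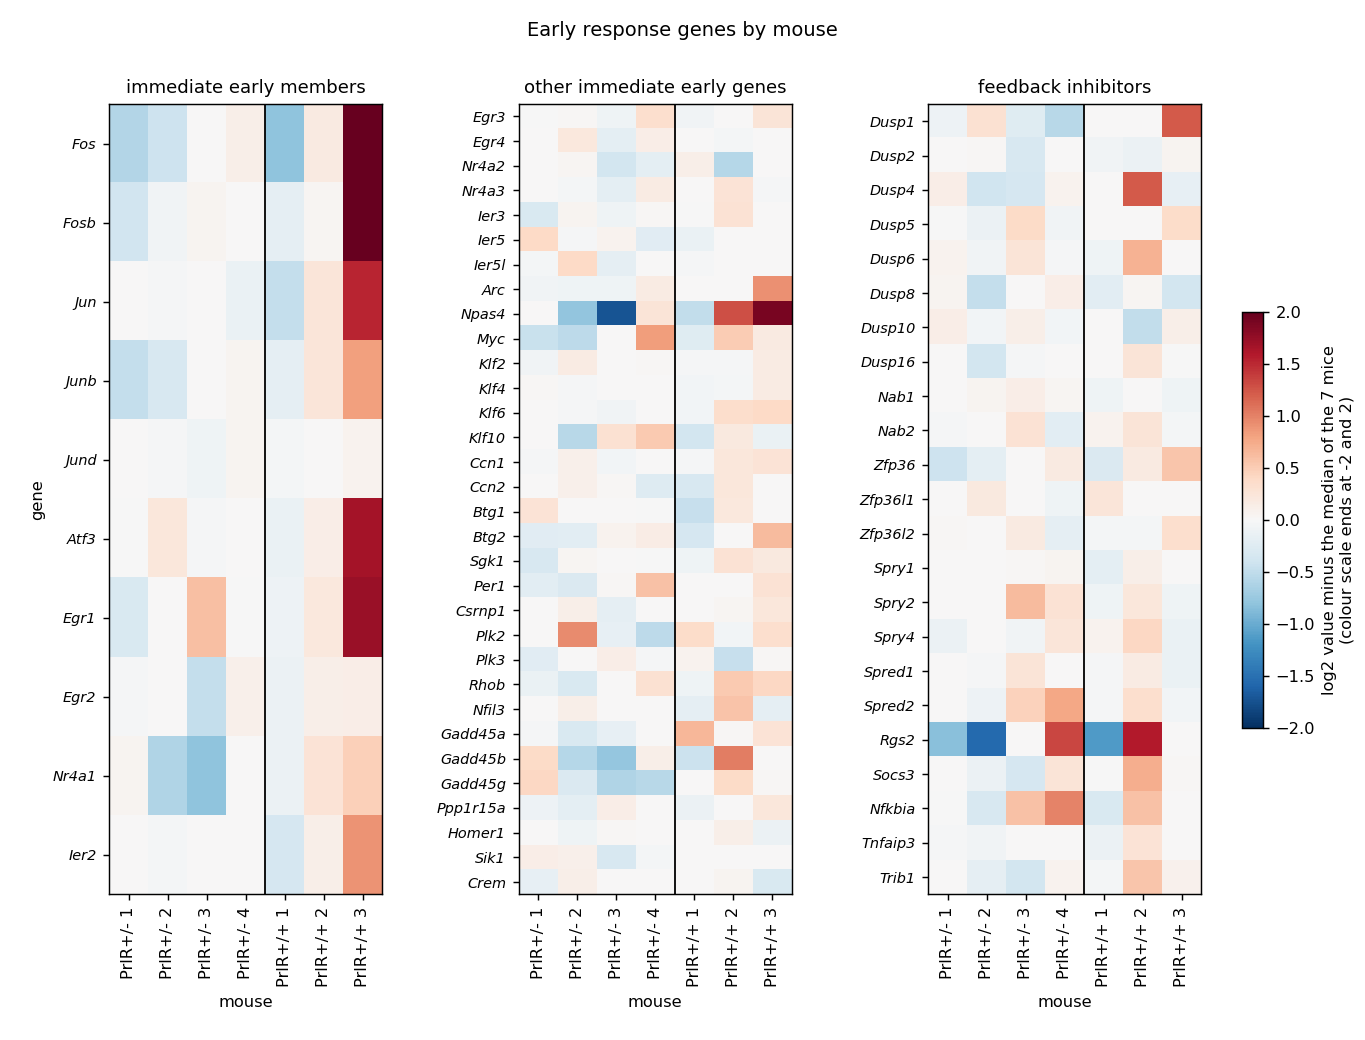
Log2 value minus the median of the 7 mice for the 10 members, 32 other immediate early genes and 23 feedback inhibitors, with PrlR+/- mice left of the line and PrlR+/+ mice right of it. Red is above and blue below the median, and the colour scale ends at -2 and 2. The last column, PrlR+/+ 3, is darkest red for Fos and Fosb and holds values near the median for many genes of the other lists.

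Among 3110 genes outside the list with a mean at or above the median gene and an SD over the 7 mice of at least 0.2, 8 had the highest Pearson correlation with the per-mouse mean of the members. They were Hspa1a (r = 0.946), the antiproliferative gene Btg2 (0.92), Zfp36, whose protein speeds the decay of early response mRNAs (0.859), Mir375 (0.852), Snord14e (0.844), 3010003L21Rik (0.841), Accs (0.837) and the MAP kinase phosphatase gene Dusp1 (0.829). These values describe 7 mice that share the high value of PrlR+/+ 3, and the SD filter includes that mouse too. A gene could thus pass the filter through its value in PrlR+/+ 3 alone. Over the other 6 mice r was 0.888 for Zfp36, 0.761 for Btg2 and 0.453 for 3010003L21Rik, and between -0.322 and 0.077 for the other 5. Dusp1 was at 10.52, 10.92, 10.37 and 10.07 in PrlR+/- mice, against 10.63, 10.62 and 11.85 in PrlR+/+ mice. Each member was also set against the mean of the other 9: over the 7 mice r was 0.982 for Fos and 0.393 for Egr2, and without PrlR+/+ 3 it was 0.861 for Fos, 0.08 for Nr4a1 and between those for the others.

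The arrays carried the defining transcripts of islets in every mouse, with the insulin gene Ins2 at 13.23 to 13.33 in PrlR+/- mice, against 13.28 to 13.36 in PrlR+/+ mice, where the largest value on any array was 13.97. Of 10 islet endocrine markers 0 were called, and the per-mouse mean was 12.41 to 12.59 in PrlR+/- mice, against 12.46 to 12.61 in PrlR+/+ mice. The 2 of smallest unadjusted p were Nkx6-1, a beta cell factor, at 0.10 ± 0.06 and the glucose transporter gene Slc2a2 at -0.34 ± 0.21 (SE). Of 32 markers of other cell types, PrlR+/+ 3 was the highest mouse for 1, the macrophage marker Cd68, picked for its value, at 8.03 beside 7.17 to 7.72. Its mean of 7 acinar markers was 12.96, beside 13.07 to 13.43 in the other mice, and its mean of 8 stellate and fibroblast markers was 7.587, beside 7.662 to 8.148. Its means of 8 endothelial and 9 myeloid markers, 9.246 and 7.692, lay within those of the other mice. Between genotypes, the mean was higher in PrlR+/- islets for 6 of 7 acinar, 5 of 8 endothelial, 6 of 9 myeloid and 8 of 8 stellate and fibroblast markers. Without PrlR+/+ 3 these counts were 3 of 7, 5 of 8, 5 of 9 and 6 of 8 in the same order. The median acinar difference was 0.08 with all mice and -0.0125 without PrlR+/+ 3. PrlR+/- 2 was the highest mouse for 5 of the 7 acinar markers, beside 11.8% of all genes, and PrlR+/+ 2 for the other 2. The per-mouse means of these lists overlapped between genotypes: for the stellate list they were 7.662 to 8.148 in PrlR+/- mice, against 7.587 to 7.856 in PrlR+/+ mice. None of the 32 markers was called by limma, and 4, or 12.5%, had an unadjusted p under 0.05, against 2.20% of all genes. These were Lyz2 of macrophages (0.64 ± 0.10), Thy1 of fibroblasts (0.34 ± 0.09) and the endothelial genes Emcn (0.26 ± 0.09) and Cdh5 (0.23 ± 0.10), as log2 differences ± SE. The other markers named by rule were Cela2a (0.14 ± 0.12), Cela1 (0.32 ± 0.28), Ptprc (-0.07 ± 0.08) and Dcn (0.29 ± 0.27). Whether these cell types had a part in the immediate early differences was not tested.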

How the data were processed

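Total RNA of islets from each of 7 mice was hybridised to 1 array and, per the labels, 250 ng of RNA with integrity numbers above 8.5 went into the labelling. The authors deposited log2 values with 2 decimals for 35556 probe sets, made with Affymetrix Expression Console 1.2.0.20 per the submitters' processing notes. Their range shows the log2 scale. How background was corrected and how probe sets were normalized and summarized is not given in the sources used here. Of the probe sets, 21789 had 1 gene symbol, 1621 several and 12146 none listed; the first kind gave 19938 genes, the probe set of highest mean standing for each. No filter or further normalization was applied. No signal above background was available; Junb, Atf3, Egr2 and Ier2 had means under the median gene mean of 7.36. Arrays have no read depth, so their number limits the precision, and scan dates were not analysed.

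Groups came from the source labels. PrlR+/- minus PrlR+/+ differences were fitted across all genes with limma 3.58.1 (lmFit, eBayes; moderated SE) in R 4.3.3, 2-sided, and a gene was called where its Benjamini-Hochberg adjusted p was under 0.05. The fit was tested on simulated data. Other steps used Python 3.11.15 (pandas 2.3.3). The members and the 10 other lists (142 of 152 genes measured, 4 matched through older symbols) were chosen with earlier results of these data known. Named genes were the members, the members of each list that passed or else the 2 of smallest unadjusted p, and the 8 genes most correlated with the member mean; others are said to be picked for their values. Same-numbered mice of the groups deviated from their group means with r = 0.09, -0.386 and -0.029 over genes, so the numbers were not taken to pair the mice. Alternatives were other eBayes variance models, array weights, quantile normalization, median centring, a filter at the 40th percentile of gene means, the mean of all probe sets, the replicate block and leaving out each mouse. The prolactin receptor gene was not analysed here, and the genotype labels were therefore not checked against it.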

Additional observations from a re-analysis of the deposited data

Results flagged for a closer look

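In 4 of 39 sets of PrlR+/- values examined, 1 mouse lay farther from the other 3 than Dixon's 95% critical value of 0.829 of the range allows, where chance gives about 1 in 20. Atf3 was at 6.98 in PrlR+/- 2 and at 6.74 to 6.76 in the other 3 heterozygous mice. Ier2 was at 6.04 in PrlR+/- 2 and at 6.08 in each of the other 3, a gap of 0.04 in values given to 2 decimals. Batf was at 6.71 in PrlR+/- 4 and at 6.11 to 6.16 in the other 3, and Hspa1a at 8.86 in PrlR+/- 2 and at 8.61 to 8.62. The test was run on the PrlR+/- group only, so the position of PrlR+/+ 3 was not examined by it.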

How the results depend on the processing

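Over 15 alternatives, 0 members and 0 genes were called by limma, with the smallest adjusted p of a member at 0.818 and of any gene at 0.534 (with array weights); unadjusted, 0 members and 438 genes were under 0.05 with the reported settings, Junb and 1132 genes with array weights, Nr4a1 and 622 genes without PrlR+/- 1, and Nr4a1 and 373 genes without PrlR+/- 4. In the 7 alternatives whose estimates used all mice, every member measured kept its lower mean in PrlR+/-. The eBayes models and the filter keep the group means, and each member has 1 probe set. Of the 7, only array weights, quantile normalization and median centring could therefore move a sign. The mean difference of -0.497 ranged there from -0.726 with array weights to -0.485 with quantile normalization; it was not computed with the filter on dim genes, which removed Egr2 and Ier2. With the replicate block, in which PrlR+/- 4 has no partner and 6 mice set the estimates, it was -0.532, as without PrlR+/- 4. With this block Junb and 341 genes had an unadjusted p under 0.05, and the block changed no call. Leaving out 1 mouse gave ranges that crossed 0 for 6 members: -1.56 to 0.09 for Fos, -0.918 to 0.0825 for Jun, -0.0475 to 0.0075 for Jund, -0.853 to 0.0475 for Atf3, -0.895 to 0.015 for Egr1 and -0.52 to 0.095 for Ier2. The positive end came without PrlR+/+ 3 in all 6, and Jund was also positive, at 0.00333, without PrlR+/- 3. With 3 wild type arrays, 1 of which sets the group mean and SD, the SE was above the median of all genes (0.0977) for 9 of the 10 members.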

Other observations

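Small RNA probe sets were among the genes highest in PrlR+/+ 3. Mir7b was at 5.78, 5.78, 5.70 and 5.91 in PrlR+/- mice, against 5.54, 5.74 and 8.20 in PrlR+/+ mice, and Mir7-2, from another copy of the same islet microRNA family, at 5.45, 6.09, 6.09 and 6.32 in PrlR+/- mice, against 5.88, 6.08 and 7.77 in PrlR+/+ mice. Mir200b was at 5.80 in PrlR+/+ 3 and at 4.20 to 4.62 in the other mice, and Mir375, an abundant islet microRNA gene, at 8.82 and at 7.25 to 8.03. Snord14e, a small nucleolar RNA gene, was at 8.77, 9.53, 8.13 and 8.69 in PrlR+/- mice, against 8.88, 8.61 and 11.09 in PrlR+/+ mice. Of 300 genes whose symbol starts with Mir, PrlR+/+ 3 was the highest mouse for 51, or 17.0%, beside 8.17% of all genes, while PrlR+/- 4 was the highest for 94, or 31.3%, beside 29.3%. Other mice were above their share of all genes too: PrlR+/+ 1 at 13.3% beside 8.88%, PrlR+/- 2 at 15.0% beside 11.8% and PrlR+/- 1 at 9.67% beside 8.27%. Below it were PrlR+/+ 2, at 4.67% beside 13.6%, and PrlR+/- 3, at 5.33% beside 15.8%. The small RNA genes named here were picked after their values were seen, and the cause was not tested.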
